A study of Ipomoea batatas with 12 samples.

Results

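The onset of bulking was described in roots of sweetpotato (Ipomoea batatas) that overexpress MBP3, a MADS-box transcription factor gene, by comparing 3 RNA-seq libraries taken at 1 month with 3 taken at 20 days. Every gene with a mean of at least 0.5 FPKM (fragments per kilobase of transcript scaled by mapped reads, the deposited level per gene length) over these 6 libraries was kept, which gave 28022 genes of the 45142 in the deposited table and left out 17120. Both groups are MBP3-OE roots from the greenhouse, the 20-day group labelled 20 days and the 1-month group 1 month, and no other treatment is given. The libraries carry the numbers 2, 3 and 8 at both ages. No source used here says whether a number is a line, a plant or a pool, which promoter drives the transgene, or which tissues of the root were taken. The other 6 of the 12 libraries of the series are MBP3-OE at 4 months (3 libraries) and WT, cultivar Taizhong 6, at 20 days, 1 month and 4 months (1 library each, from roots of several plants), and they appear below only beside a result. For WT the labels give 1 month where the design text of the series gives a later planting age for the developing tuberous root. In what follows, 3 values in a row belong to libraries 2, 3 and 8 in that order.

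A sweetpotato tuberous root starts as a thin adventitious root. Its root tip stops extending, cambium forms rings of dividing cells, the wood-like stele stays largely unlignified, and the new parenchyma fills with starch and with sporamin, a Kunitz-type trypsin inhibitor that serves as the storage protein of this crop. Class-I KNOX homeobox genes and MADS-box genes are known to be active in the dividing tissue of young tuberous roots. A thin fibrous root, by comparison, takes up phosphate, nitrate and water and builds lignified vessels.

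The overexpressed gene was present at both ages. The annotation holds MBP3 at g4107 and g4109, which lie near each other on linkage group 1 and may share reads, and the deposited levels cannot tell the native gene from the introduced copy. MBP3 g4107 stood at 75.0, 78.4 and 67.3 FPKM at 20 days and at 29.7, 58.3 and 51.3 FPKM at 1 month, against 15.3 and 23.2 FPKM in the WT libraries of these ages. MBP3 g4109 stood at 40.8, 40.3 and 36 FPKM at 20 days and at 16.6, 29.7 and 26.3 FPKM at 1 month. All 3 values of each copy were lower at 1 month, by 0.73 ± 0.22 (SE) for g4107 and 0.75 ± 0.20 for g4109 on the log2 scale, and neither was called (edgeR adjusted p = 0.058 and 0.036, the latter below the fold minimum).

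A gene was called where edgeR's quasi-likelihood test gave a Benjamini-Hochberg adjusted p under 0.05 over all 28022 genes and the log2 fold change of 1 month over 20 days was at least 1 in size; "rose" and "fell" below refer to such calls. In all, 4022 genes (14.4%) were called, of which 2187 (7.8%) rose and 1835 (6.55%) fell. These shares are the background against which each group of genes below is read. Without a fold minimum, 3335 genes (11.9%) were higher and 2921 (10.4%) lower at an adjusted p under 0.05. The 3 values at 1 month were all above the 3 at 20 days in 7079 genes (25.3%) and all below them in 5289 (18.9%), and this held for 2179 of the 2187 rises and all 1835 falls. The genes that rose were mostly of low level before, with a median of the mean FPKM of 2.42 at 20 days and 8.12 at 1 month. The genes that fell had been more abundant, with medians of 11.4 and 3.16 FPKM. Most changes were moderate, since 1568 rises and 1085 falls lay between 1 and 2 on the log2 scale, while 12 rises and 26 falls reached 5 or more. The median log2 fold change over all genes was 0.05.

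The libraries separated by age first. The first principal component of log2 CPM held 57.6% of the variance and put the 20-day libraries at -94.95, -80.4 and -83.27 and the 1-month libraries at 121.2, 61.56 and 75.86. The second held 18.3% and spread the 1-month libraries from -83.87 for library 2 to 78.67 for library 3. The spread between libraries was wider at 1 month, with a common biological coefficient of variation of 0.404 against 0.233 at 20 days. Total counts ran from 43164893 to 58486728. Leaving out a 20-day library reduced the calls most, to 2060 without library 2, 2272 without library 3 and 1873 without library 8, whereas leaving out a 1-month library gave 3880 to 4356.

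**Figure D1:**
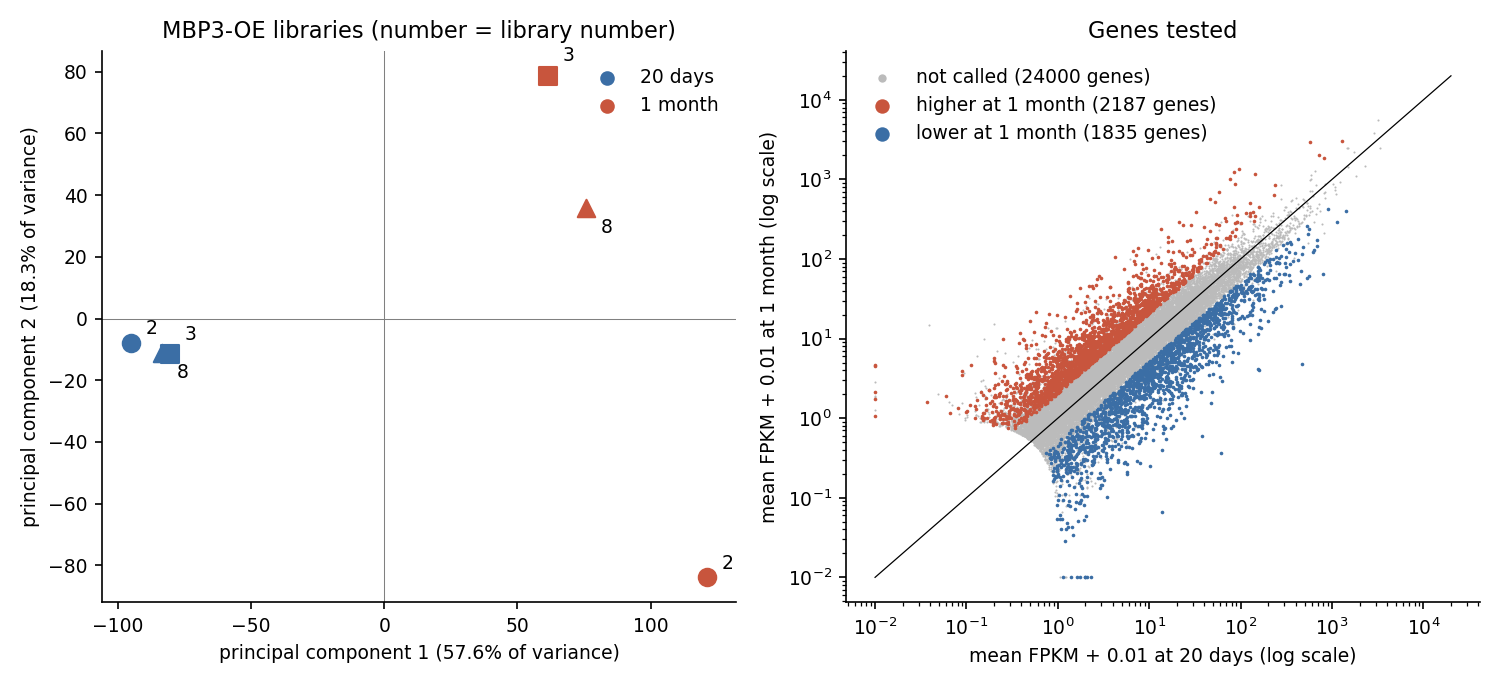
Left, the 6 MBP3-OE libraries on the first 2 principal components of log2 CPM (percent of variance on each axis, blue for 20 days, red for 1 month, library number beside each point). Right, the mean FPKM + 0.01 of each of the 28022 genes at 20 days (x axis) and 1 month (y axis), both on log scales, with 2187 genes that rose in red and 1835 that fell in blue; the ages separate along the first component, and the 1-month libraries lie farther apart than the 20-day ones.

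The storage protein genes rose. Sporamin g46653 stood at 103, 108 and 43.3 FPKM at 20 days and at 1481, 1817 and 456 FPKM at 1 month, a log2 fold change of 3.84 ± 0.61 (SE; edgeR adjusted p = 0.0083). The sporamin precursor gene g46878 went from 119, 119 and 47.2 FPKM to 1405, 2141 and 556 FPKM (log2 fold change 3.80 ± 0.59, edgeR adjusted p = 0.008). The groups did not overlap in either gene, and library 8 was the lowest at each age. Of 15 sporamin genes tested, 12 rose and 0 fell, with a median log2 fold change of 3.54 against 0.05 over all genes. The summed level of all 42 sporamin genes in the deposited table, tested or not, went from 1064, 1205 and 495 FPKM to 9889, 13340 and 3227 FPKM. Their share of all counts went from 0.14%, 0.16% and 0.0666% to 1.3%, 1.7% and 0.418%. The sum was 136157, 65836 and 128348 FPKM at 4 months, far above every 1-month library. In bulk roots more cells of a type and more RNA per cell cannot be told apart, here and in all that follows. The call held in 3, 3 and 5 of the 15 genes without 20-day library 2, 3 and 8, and near-identical sporamin copies may share reads.

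The sporamin genes lie together, and other storage-type inhibitors were less uniform. On linkage group 11, between 38788326 and 38996651 in the coordinates of the deposited table (whose genome build is not given in the sources used here), 12 neighbouring tested genes from g46650 to g46674 rose, 11 of them sporamin genes. The other was g46674, described as a LINE-type retrotransposon, at 4.17, 5.03 and 3.49 FPKM at 20 days and 102, 164 and 49.6 FPKM at 1 month (log2 fold change 4.58 ± 0.47, edgeR adjusted p = 0.003), with library 8 again the lowest at 1 month. Of 50 other Kunitz and protease inhibitor genes, 7 rose and 1 fell. The rises included g3999, a proteinase inhibitor type-2 gene, from 0.368, 0.565 and 0.522 FPKM to 11.8, 24.2 and 14.6 FPKM (log2 fold change 4.99 ± 0.38, edgeR adjusted p = 0.0017). Its neighbour g4000, PSI-1.2-like, rose from 2.15, 1.58 and 3.56 FPKM to 42.8, 55.1 and 33.6 FPKM (4.11 ± 0.37, edgeR adjusted p = 0.0025). The group's count was 4 of 50 without 20-day library 2 or 8.

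Starch synthesis genes rose alongside. Starch branching enzyme I (g51137), which adds the branch points of amylopectin, went from 6.47, 6.12 and 5.08 FPKM at 20 days to 41.4, 48.1 and 35.8 FPKM at 1 month (log2 fold change 2.78 ± 0.17, edgeR adjusted p = 0.0012). Granule-bound starch synthase 2 (g17409), which makes glucan chains, went from 5.95, 6.68 and 5.20 FPKM to 51, 40.8 and 23.3 FPKM (2.65 ± 0.32, edgeR adjusted p = 0.0042). In both genes every library at 1 month stood above every library at 20 days. Granule-bound starch synthase I (g39231), the amylose-forming enzyme, was more abundant, at 49.6, 42.3 and 26.7 FPKM and then 120, 432 and 198 FPKM (2.59 ± 0.47, edgeR adjusted p = 0.012). The beta subunit of ADP-glucose pyrophosphorylase (g59752), which makes the glucose donor for starch, rose from 21.6, 15.3 and 10.8 FPKM to 65.0, 325 and 97.6 FPKM (3.29 ± 0.62, edgeR adjusted p = 0.014). In the last pair library 3 was far above the others at 1 month. Of 22 starch synthesis genes, 11 rose and 1 fell, with a median log2 fold change of 1.23. The gene that fell is g34438, glucose-6-phosphate/phosphate translocator 2, which carries glucose phosphate into plastids, from 65.9, 55.2 and 74.4 FPKM to 7.24, 17.1 and 24.6 FPKM (log2 fold change -2.07 ± 0.39, edgeR adjusted p = 0.014). The number that rose was 8, 10 and 7 without 20-day library 2, 3 and 8. The call of g39231 was lost without 20-day library 3 or 8, that of g59752 without any of the 3, and that of g34438 without 20-day library 2 or 8; their adjusted p ranged over 0.0061 to 0.057, 0.0064 to 0.063 and 0.0057 to 0.056 with each library left out in turn.

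Genes described as starch-degrading rose at the same time. A beta-amylase gene (g13691), which releases maltose, went from 14, 16.3 and 9.82 FPKM to 241, 369 and 102 FPKM (log2 fold change 4.10 ± 0.50, edgeR adjusted p = 0.0042). The plastid glucan phosphorylase L (g1272), which acts on the ends of glucan chains in either direction, went from 1.92, 4.08 and 2.42 FPKM to 33.5, 88.4 and 62.4 FPKM (4.37 ± 0.45, edgeR adjusted p = 0.003). A 4-alpha-glucanotransferase (g695), which moves glucan segments between chains, went from 3.12, 3.01 and 2.08 FPKM to 18.5, 25.6 and 20.1 FPKM (2.91 ± 0.21, edgeR adjusted p = 0.0017). None of the 3 genes had overlapping groups. Of 38 such genes 12 rose and 0 fell, with a median log2 fold change of 0.56, and 8, 7 and 7 rose without 20-day library 2, 3 and 8. The most abundant member, beta-amylase 1 (g42739), was not called, at 612, 724 and 831 FPKM and 710, 234 and 511 FPKM.

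Sugar handling shifted in a few abundant genes. Sucrose synthase g55074, which cleaves sucrose in sink tissue, went from 85.7, 97.2 and 90.6 FPKM to 170, 362 and 353 FPKM (log2 fold change 1.63 ± 0.27, edgeR adjusted p = 0.0093). An insoluble, cell-wall beta-fructofuranosidase (g25102), which cleaves sucrose outside the cell, fell from 42.5, 29.2 and 69.3 FPKM to 7.93, 12.6 and 10.9 FPKM (-2.23 ± 0.34, edgeR adjusted p = 0.0073). The hexose importer sugar transport protein 13 (g7087) fell from 222, 236 and 249 FPKM to 31.2, 30.8 and 9.26 FPKM (-3.35 ± 0.48, edgeR adjusted p = 0.0062). The groups were apart in all 3, and transcripts of the sucrose synthase gene g55074 and the wall enzyme gene g25102 changed in opposite directions. Of 29 sucrose genes 2 rose and 2 fell (6.9% each, near the 7.8% and 6.55% of all genes), and of 30 sugar transporter genes 3 rose and 7 fell. The summed sugar transporter level went from 1088 to 1149 FPKM at 20 days down to 679 to 751 FPKM at 1 month. The call of g55074 was lost without 20-day library 2, with adjusted p from 0.0019 to 0.051 over the libraries left out, and 5, 4 and 5 transporters fell and 1 rose without 20-day library 2, 3 and 8.

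**Figure D2:**
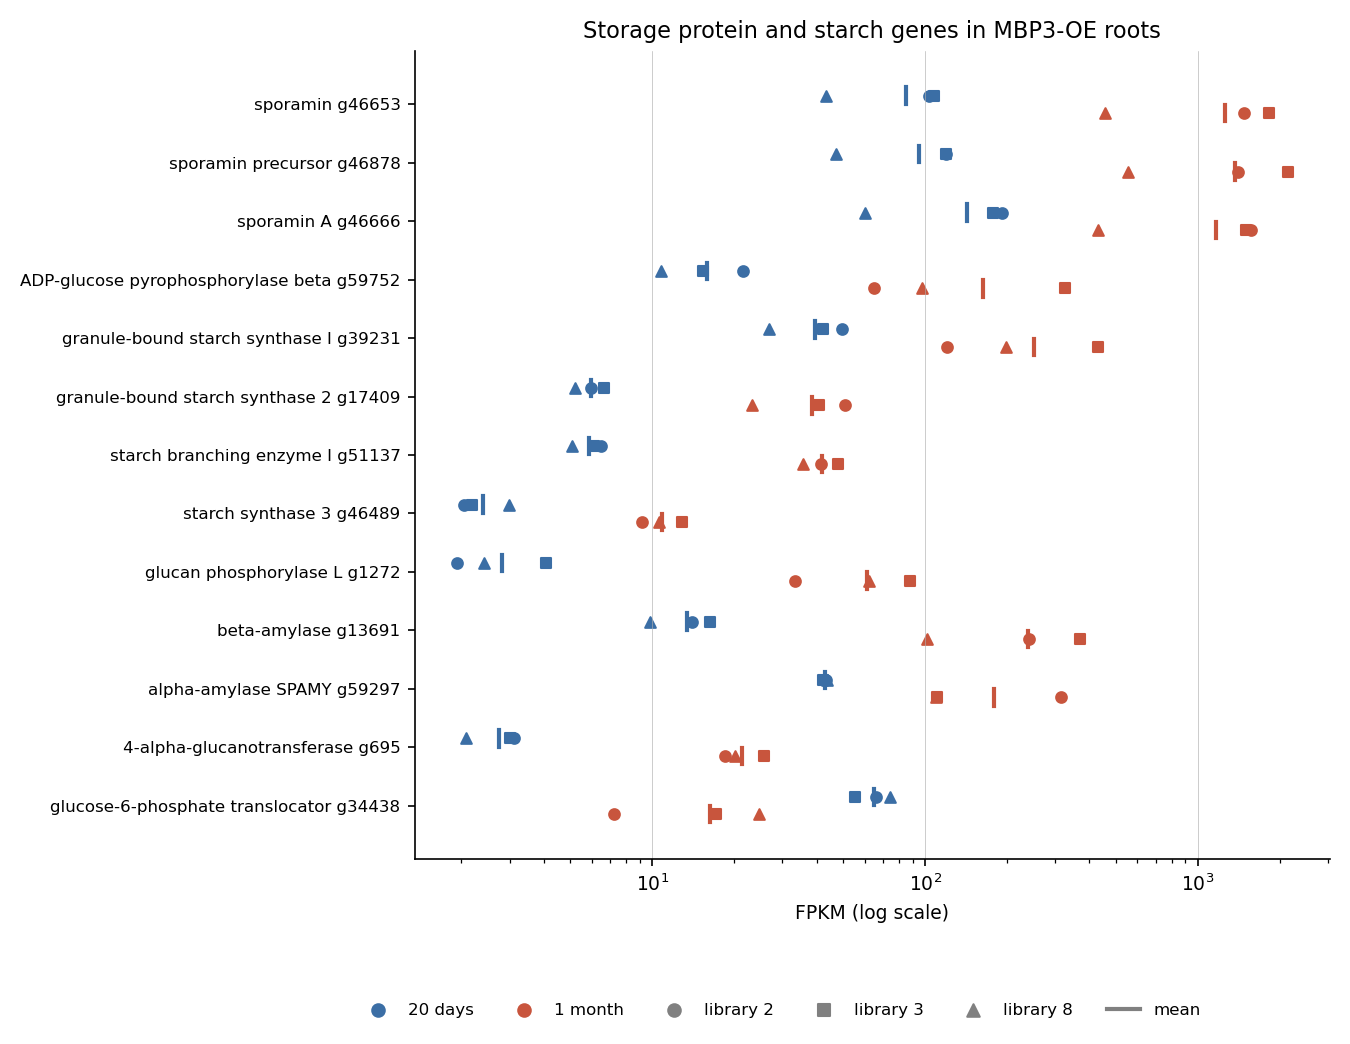
FPKM (x axis, log scale) of 13 storage protein and starch genes in the 6 MBP3-OE libraries, blue at 20 days and red at 1 month, with a marker shape for each library number and a bar at the mean. Sporamin, starch synthase, branching enzyme, phosphorylase and amylase genes lie to the right at 1 month, and glucose-6-phosphate translocator g34438 lies to the left.

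Phosphate acquisition genes fell, among them several of the largest changes of the comparison. The root phosphate importer inorganic phosphate transporter 1-4 (g5297) went from 72.6, 42.8 and 69.4 FPKM to 0.385, 0.310 and 0.369 FPKM (log2 fold change -7.47 ± 0.30, edgeR adjusted p = 0.00081). GDPD1 (g17637), a phosphodiesterase that frees phosphate from lipid head groups, went from 199, 152 and 126 FPKM to 3.35, 3.58 and 5.14 FPKM (-5.36 ± 0.26, edgeR adjusted p = 0.00081), and its near copy g17649 did likewise and may share its reads. SPX domain-containing protein 1 (g62091), one of the proteins through which plant cells read their phosphate status, went from 156, 120 and 105 FPKM to 9.19, 10.8 and 8.80 FPKM (-3.77 ± 0.19, edgeR adjusted p = 0.00081). In each of these genes the lowest library at 20 days stood far above the highest at 1 month. Inorganic pyrophosphatase 2 (g55240), which releases phosphate from pyrophosphate, fell from 592, 393 and 422 FPKM to 2.11, 7.36 and 5.05 FPKM (-6.66 ± 0.49, edgeR adjusted p = 0.0017). SQD2 (g18083), which makes the sulfur-containing lipid that can stand in for phospholipid, fell from 67.5, 48.2 and 46.5 FPKM to 7.06, 7.28 and 7.67 FPKM (-2.93 ± 0.17, edgeR adjusted p = 0.001). These genes are known to be induced by low phosphate in other plants. Of 57 phosphate genes 18 fell and 3 rose, with a median log2 fold change of -0.60, and 15, 18 and 16 fell and 0, 1 and 0 rose without 20-day library 2, 3 and 8. A member that rose is purple acid phosphatase 1 (g38857), from 150, 141 and 181 FPKM to 605, 301 and 456 FPKM (1.49 ± 0.29, edgeR adjusted p = 0.015), a call lost without any of the 20-day libraries (adjusted p 0.0061 to 0.073). The phosphate supply of the plants at either age is not given in the sources used here.

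Nitrogen and water transport genes changed at the same time. NRT1/PTR family 4.3 (g59390), of a family that carries nitrate and small molecules, fell from 65.2, 48.1 and 72.7 FPKM to 1.01, 4.52 and 3.15 FPKM (log2 fold change -4.50 ± 0.52, edgeR adjusted p = 0.0039). Asparagine synthetase (g15149), which makes the nitrogen-rich amide used for transport and storage, rose from 5.44, 9.96 and 6.32 FPKM to 94.6, 47.7 and 48.2 FPKM (3.1 ± 0.41, edgeR adjusted p = 0.0051). Of 89 nitrogen genes 14 rose and 16 fell, so the group had no single direction. Among aquaporins, the plasma membrane channel PIP1-2 (g20353) fell from a mean of 631 ± 57.4 FPKM (SD, n = 3) to 131, 98.2 and 165 FPKM (-2.32 ± 0.22, edgeR adjusted p = 0.0029), and the vacuolar TIP2-1 (g61049) from 456, 459 and 492 FPKM to 89.3, 69.2 and 183 FPKM (-2.10 ± 0.35, edgeR adjusted p = 0.0095). The summed aquaporin level was 6163 to 7276 FPKM at 20 days and 2451 to 4972 FPKM at 1 month, with 3 of 34 genes that rose and 5 that fell. Potassium transporter 5 (g49793), a high-affinity uptake type, fell from 31.4, 25.9 and 23.2 FPKM to 2.20, 4.09 and 1.23 FPKM (-3.47 ± 0.43, edgeR adjusted p = 0.0044). A probable vacuolar amino acid transporter, YPQ3 (g41813), had the lowest log2 fold change among called genes with an informative description and at least 5 FPKM, -7.91 ± 0.70, from 12.5, 15.6 and 13.1 FPKM to 0.0622, 0.104 and 0 FPKM (edgeR adjusted p = 0.0024). Without 20-day library 2, 3 or 8 the nitrogen genes that fell numbered 9, 11 and 9 and those that rose 9, 10 and 10; no aquaporin rose without any of these libraries, and 9 fell without 1-month library 8.

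Many AP2/ERF, WRKY and NAC transcription factor genes fell. ABR1 (g42323), an AP2/ERF factor known as a repressor of abscisic acid responses in Arabidopsis, went from 515, 541 and 610 FPKM to 82.9, 63.7 and 37.1 FPKM (log2 fold change -3.22 ± 0.34, edgeR adjusted p = 0.0031). DREB1E (g38193), of the same family, went from 14.8, 19.3 and 20.9 FPKM to 0.893, 0.684 and 0.772 FPKM (-4.58 ± 0.25, edgeR adjusted p = 0.00081). WRKY31 (g34420) fell from 163, 143 and 193 FPKM to 17.8, 20.0 and 31.8 FPKM (-2.90 ± 0.25, edgeR adjusted p = 0.0023). The groups were far apart in all 3 genes. WRKY75 (g4184), a regulator of phosphate starvation responses in Arabidopsis, fell from 37.9, 26 and 26.6 FPKM to 1.98, 3.33 and 1.88 FPKM (-3.70 ± 0.29, edgeR adjusted p = 0.002). NAC1 (g61404) fell from 694, 642 and 691 FPKM to 188, 152 and 184 FPKM (-2.00 ± 0.16, edgeR adjusted p = 0.002). NAC domain-containing protein 30 (g3985), of a group that switches on vessel formation in Arabidopsis, fell from 8.65, 7.06 and 9.09 FPKM to 0.541, 1.31 and 0.583 FPKM (-3.40 ± 0.38, edgeR adjusted p = 0.0036). Of 121 AP2/ERF genes 33 fell and 3 rose (median log2 fold change -0.60), of 69 WRKY genes 21 fell and 4 rose (-0.57), and of 83 NAC genes 17 fell and 5 rose. MYB genes were mixed, with 11 rises and 15 falls of 119, as were bHLH genes, with 7 and 12 of 114. Calcium signalling genes showed 18 falls (9.89%) and 2 rises (1.1%) of 182, where 6.55% of all genes fell and 7.8% rose. Without 20-day library 2, 3 and 8 the falls were 21, 19 and 19 for AP2/ERF, 17, 15 and 14 for WRKY and 14, 11 and 11 for NAC, the MYB rises 4 each time and the bHLH rises 3 each time and falls 6, 5 and 5, and the rises were 0, 1 and 0 for AP2/ERF, 0, 1 and 3 for WRKY and 2, 3 and 2 for NAC; the calcium rises were 8 without 1-month library 3.

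Developmental regulators moved in both directions. WUSCHEL-related homeobox 5 (g20352), whose Arabidopsis counterpart marks the organizing centre of the root tip, fell from 22.0, 21.3 and 23.7 FPKM to 0.430, 2.36 and 0.677 FPKM (log2 fold change -4.33 ± 0.61, edgeR adjusted p = 0.006). A putative SHORT-ROOT gene (g29056), which patterns the ground tissue of the root, fell from 24.3, 27.3 and 27.2 FPKM to 2.83, 7.73 and 11.8 FPKM (-1.90 ± 0.44, edgeR adjusted p = 0.025). A SHORT-ROOT-like gene of low level (g1041) was not called, at 0.584, 0.211 and 0.658 FPKM and 0.900, 2.12 and 1.45 FPKM (1.55 ± 0.51, edgeR adjusted p = 0.069). The class-I KNOX gene IBKN2 (g41979), of a family that keeps meristem cells undifferentiated, rose from 5.89, 9.82 and 9.44 FPKM to 33.1, 24.4 and 27.2 FPKM (1.70 ± 0.26, edgeR adjusted p = 0.0076). WUSCHEL-related homeobox 5 and IBKN2 thus changed in opposite directions between the same libraries. A MADS-box gene (g38619) rose from 12.6, 15 and 14.7 FPKM to 39.4, 41.9 and 47.5 FPKM (1.55 ± 0.15, edgeR adjusted p = 0.0027). HD-Zip genes ATHB-13-like (g12194) and ATHB-16-like (g16785) rose by 1.84 ± 0.28 and 1.76 ± 0.19 on the log2 scale (edgeR adjusted p = 0.0074 and 0.0034), from 12.5 to 12.7 FPKM up to 29.6 to 69.3 FPKM for the first. Of 29 MADS-box genes 5 rose and 1 fell (median log2 fold change 0.97), of 37 KNOX, BEL and WOX genes 6 rose and 1 fell, and of 44 HD-Zip genes 3 rose (6.82%) and 8 fell (18.2%). Both HD-Zip genes named above are thus among the fewer that rose. Without 20-day library 2, 3 and 8 the rises were 1, 4 and 2 for MADS-box genes and 3 each time for the KNOX, BEL and WOX genes, the HD-Zip falls were 4, 4 and 3, the MADS-box rises were 8 without 1-month library 8, and the call of g29056 was lost without any of the 3 (adjusted p 0.0074 to 0.080).

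Genes of several hormone pathways fell, jasmonate, ethylene and cytokinin synthesis among them. Allene oxide synthase 1 (g60443), an early step of jasmonate synthesis, fell from 18.8, 25.6 and 33.2 FPKM to 0.876, 2 and 2.34 FPKM (log2 fold change -3.96 ± 0.40, edgeR adjusted p = 0.003), and 12-oxophytodienoate reductase 3 (g26220), a later step, from 5.06, 5 and 7.85 FPKM to 0.339, 0.379 and 0.538 FPKM (-3.88 ± 0.32, edgeR adjusted p = 0.0021). ACC oxidase 5 (g42432), which releases ethylene, fell from 25.2, 13.7 and 24.3 FPKM to 0.519, 1.85 and 1.63 FPKM (-4.05 ± 0.48, edgeR adjusted p = 0.0041). All 3 were near or under 2 FPKM at 1 month. Cytokinin hydroxylase (g20587), which makes trans-zeatin, fell from 14.6, 15.7 and 18.6 FPKM to 1.15, 2.61 and 0.699 FPKM (-3.51 ± 0.48, edgeR adjusted p = 0.0055). Among gibberellin genes, ent-kaurene oxidase (g60439), an early step, rose from 1.55, 2.38 and 1.62 FPKM to 8.63, 10.9 and 10.2 FPKM (2.36 ± 0.23, edgeR adjusted p = 0.0029), and gibberellin 2-beta-dioxygenase 1 (g43434), which inactivates gibberellin, fell from 34.5, 46.4 and 42.1 FPKM to 8.09, 12.7 and 10.4 FPKM (-2.04 ± 0.20, edgeR adjusted p = 0.0029). AIR12 (g9816), an auxin-induced redox protein, fell from 243, 172 and 176 FPKM to 6.90, 19.7 and 23.4 FPKM (-3.63 ± 0.43, edgeR adjusted p = 0.004). By list, 14 of 45 jasmonate genes fell and 3 rose (median log2 fold change -0.93), 13 of 55 ethylene genes fell and 4 rose, 13 of 66 cytokinin genes fell and 7 rose, 18 of 118 auxin genes fell and 12 rose, and 9 of 55 gibberellin and brassinosteroid genes fell and 6 rose. The falls without 20-day library 2, 3 and 8 were 15, 8 and 8 for jasmonate, 6 each time for ethylene and 7 each time for cytokinin genes, 12, 10 and 10 for auxin genes and 3 each time for gibberellin and brassinosteroid genes. The rises without these libraries were 1, 1 and 0 for jasmonate, 2, 1 and 1 for ethylene, 2, 3 and 3 for cytokinin, 6, 7 and 6 for auxin and 2, 3 and 1 for gibberellin and brassinosteroid genes.

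**Figure D3:**
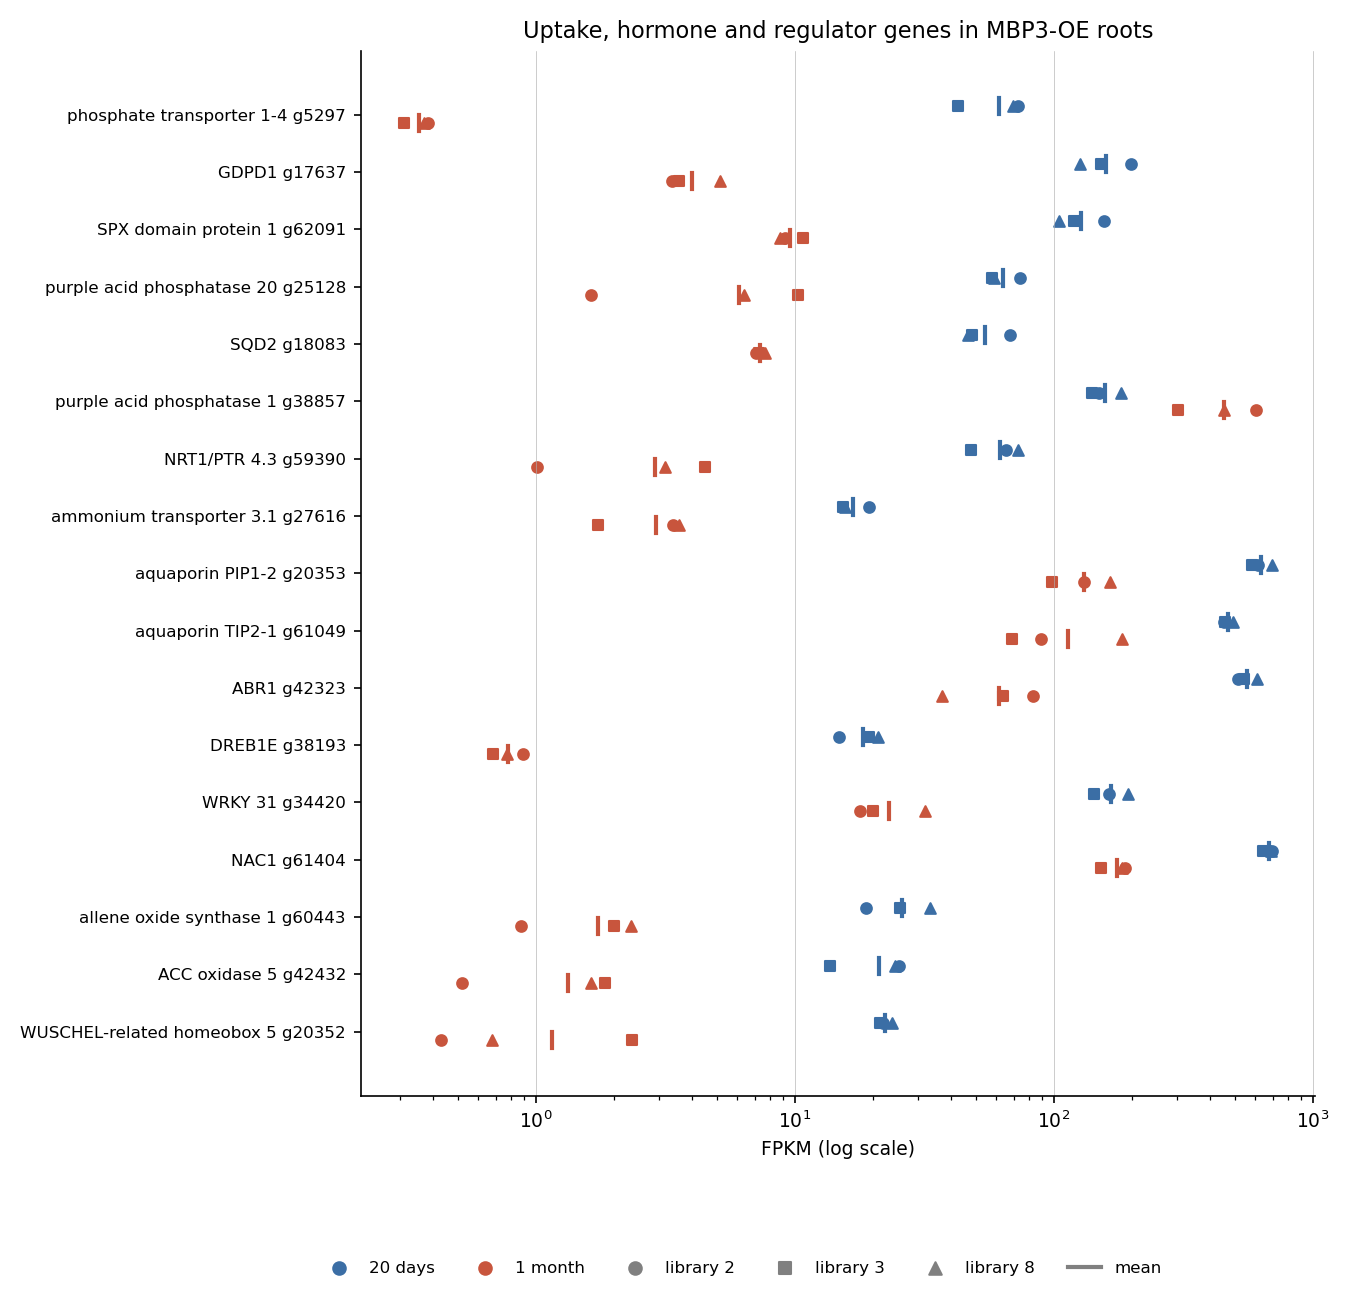
FPKM (x axis, log scale) of 17 uptake, hormone and regulator genes in the 6 MBP3-OE libraries, blue at 20 days and red at 1 month, with a marker shape for each library number and a bar at the mean. Phosphate transporter g5297 lies near 0.4 FPKM at 1 month against 42.8 to 72.6 FPKM at 20 days, and purple acid phosphatase 1 (g38857) is the one gene shown that lies higher at 1 month.

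Cell wall genes changed member by member. The expansins, proteins that loosen the wall during growth, had 3 rises and 6 falls among 29 genes tested. Among the falls was IbEXLB2 (g14427), from 22.1, 11.4 and 17 FPKM to 1.45, 1.47 and 2.21 FPKM (log2 fold change -3.35 ± 0.30, edgeR adjusted p = 0.0025), and IbEXLB11 (g55709), from 10.7, 5.83 and 14.4 FPKM to 0, 0.259 and 0.470 FPKM (-5.44 ± 0.98, edgeR adjusted p = 0.012). The summed expansin level was 349 to 362 FPKM at 20 days and 167 to 273 FPKM at 1 month. A xyloglucan endotransglucosylase/hydrolase (g58072), which cuts and rejoins wall xyloglucan, rose from 3.77, 6.37 and 5.51 FPKM to 47.7, 56.1 and 121 FPKM (3.77 ± 0.41, edgeR adjusted p = 0.0034), and a pectinesterase (g59313), which removes methyl groups from pectin, from 39.6, 27.9 and 19.7 FPKM to 105, 106 and 129 FPKM (1.92 ± 0.25, edgeR adjusted p = 0.0051). The groups did not overlap in these genes. Of 26 xyloglucan endotransglucosylase genes 3 rose and 3 fell, of 99 pectin genes 12 rose and 10 fell, of 34 cellulose synthesis genes 3 rose and 7 fell, and of 65 extensin, arabinogalactan and proline-rich protein genes 14 rose and 7 fell. No expansin rose without 20-day library 2, 3 or 8 or 1-month library 8. Without 20-day library 2, 3 and 8 the expansin falls were 4, 6 and 2, the xyloglucan endotransglucosylase falls 2, 0 and 0, the pectin rises 5, 6 and 5 and falls 3, 6 and 3, the cellulose rises 1 each time and falls 3, 2 and 2, and the extensin group's rises 3, 8 and 4 and falls 4 each time. Without 1-month library 2, 3 and 8 the xyloglucan endotransglucosylase falls were 1, 0 and 2 and the pectin rises 20, 13 and 6, and the call of IbEXLB11 was lost without 20-day library 8 (adjusted p 0.0042 to 0.053).

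Lignin and suberin genes changed in both directions. Cinnamyl alcohol dehydrogenase (g29790), the last step towards the lignin monomers, fell from 630, 743 and 658 FPKM to 137, 122 and 178 FPKM (log2 fold change -2.27 ± 0.19, edgeR adjusted p = 0.0022), with its 4 tested neighbours up to g29794 on linkage group 7. Laccase-22 (g3804), of a family that couples the monomers, fell from 13.0, 15 and 14 FPKM to 1.27, 2.48 and 3.11 FPKM (-2.68 ± 0.30, edgeR adjusted p = 0.0037). Another laccase gene, laccase-3-like (g5053), rose, with log2 fold changes of 3.34 to 4.65 with each library left out (edgeR adjusted p 0.0081 to 0.044). Peroxidase 42 (g59329) also rose, from 11.5, 25 and 16.2 FPKM to 114, 146 and 242 FPKM (3.18 ± 0.39, edgeR adjusted p = 0.0042). Of 78 class III peroxidase genes, however, 13 fell (16.7%) and 7 rose (8.97%). Without 20-day library 2, 3 and 8 the peroxidase falls were 9, 8 and 9 and the rises 3 each time. Of 139 lignin and phenylpropanoid genes tested 27 fell and 17 rose. The summed level of all 175 in the deposited table went from 5558 to 6231 FPKM down to 2761 to 4016 FPKM. Cytochrome P450 86A1 (g4988), which makes the omega-hydroxy fatty acids of suberin, rose from 6.73, 5.01 and 11.7 FPKM to 31.8, 90.7 and 51.6 FPKM (2.82 ± 0.46, edgeR adjusted p = 0.0089). Of 52 Casparian strip and suberin genes 10 rose and 3 fell; among the falls, PIMP1 (g20273), a membrane scaffold protein of the CASP-like family, went from 186, 129 and 153 FPKM to 4.97, 15.9 and 13.2 FPKM (-3.85 ± 0.41, edgeR adjusted p = 0.0033). Without 20-day library 2, 3 and 8 the lignin falls were 20, 14 and 13 and its rises 9, 11 and 13, and the suberin rises were 3, 4 and 6 and its falls 3, 2 and 3; without the 1-month libraries the suberin rises were 16, 7 and 8 and its falls 5, 5 and 6.

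Tissue markers were read as lists. Of 44 xylem vessel and fibre genes 7 fell and 0 rose, among them XCP1 (g23998), a protease of dying vessel cells, from 42.3, 34.1 and 60.6 FPKM to 9.62, 15.2 and 20.3 FPKM (log2 fold change -1.67 ± 0.31, edgeR adjusted p = 0.013). The summed xylem level was 407 to 528 FPKM at 20 days and 320 to 387 FPKM at 1 month. Of 59 phloem genes 5 fell (8.47%, near the 6.55% of all genes) and 0 rose. Of 9 vascular cambium genes 1 rose and 1 fell, and the cambium regulator WUSCHEL-related homeobox 4 (g38697) was not called, at 15.8, 24.1 and 23.0 FPKM and 19.5, 34.1 and 44.6 FPKM. Of the 3 root tip genes tested, WUSCHEL-related homeobox 5 and SHORT-ROOT g29056 fell, and the SHORT-ROOT-like g1041 was higher in all 3 libraries at 1 month but not called. All 8 root tip genes of the deposited table, tested or not, summed to 47.0 to 52.0 FPKM at 20 days and 4.2 to 14.2 FPKM at 1 month. Of 6 endodermis genes 1 rose and 2 fell, and of 7 root hair and epidermis genes 0 rose and 1 fell. The roots of both ages thus held sporamin, xylem and phloem transcripts, and WUSCHEL-related homeobox 5 was under 3 FPKM in every library at 1 month. The phloem falls were 1, the xylem falls 5, 4 and 5, the endodermis rises 0 and the root tip falls 1 without 20-day library 2, 3 and 8. In the same settings the endodermis falls were 0, 0 and 1, and the vascular cambium rises were 0 and its falls 1 each time.

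Growth machinery genes showed mostly small differences. Of 70 cell cycle and DNA replication genes 11 rose and 3 fell, with a median log2 fold change of 0.50 against 0.05 over all genes, yet the proliferating cell nuclear antigen gene (g47963), a replication clamp, stayed within 20.7 to 23.5 FPKM at 20 days and 22.9 to 23.5 FPKM at 1 month. A cyclin-D1-1-like gene (g12614), which promotes entry into the cell cycle, fell from 10.6, 8.77 and 9.31 FPKM to 2.78, 3.51 and 3.32 FPKM (log2 fold change -1.63 ± 0.17, edgeR adjusted p = 0.0031). Another cyclin-D1-1 gene (g47166) rose from 3.13, 3.49 and 4.82 FPKM to 12.5, 6.62 and 9.38 FPKM (1.28 ± 0.31, edgeR adjusted p = 0.03). The call of g47166 was lost without each library but 1-month library 3 (adjusted p 0.016 to 0.11). Of 265 cytosolic ribosomal protein genes 7 fell and 0 rose, which is under the background share of 6.55%, but 227 of the 265 were lower in all 3 libraries at 1 month than in any at 20 days, where 18.9% of all genes were. Their median log2 fold change was -0.63. The share of all counts held by all 282 such genes of the deposited table was 4.64%, 4.63% and 4.35% at 20 days and 2.6%, 3.33% and 3.18% at 1 month. Most of the ribosomal differences were therefore smaller than the fold minimum. The cell cycle rises were 2, 3 and 2 without 20-day library 2, 3 and 8, and the ribosomal falls ranged from 3 to 18 over the 6 libraries left out, the highest without 1-month library 3.

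Photosystem genes and part of the flavonoid genes rose, with unequal libraries. Dihydroflavonol 4-reductase (g17020), a step towards anthocyanin, rose from 1.49, 2.32 and 3.86 FPKM to 20.8, 49.7 and 18.6 FPKM (log2 fold change 3.46 ± 0.52, edgeR adjusted p = 0.0071), and chalcone synthase (g8138), the first committed flavonoid step, from 2.62, 7.29 and 9.75 FPKM to 40.4, 92.4 and 50.6 FPKM (3.14 ± 0.54, edgeR adjusted p = 0.010). Of 81 flavonoid genes tested 18 rose and 2 fell. The summed level of all 122 in the deposited table was 1525, 1538 and 1689 FPKM at 20 days and 1129, 1821 and 1237 FPKM at 1 month, lower in libraries 2 and 8. The deposited pathway term for flavonoid biosynthesis, which holds other genes as well, had 18 rises and 16 falls of 109. Of 42 photosystem and light-harvesting genes 20 rose and 0 fell, with a median log2 fold change of 2.61. Oxygen-evolving enhancer protein 2 (g58982), of photosystem II, went from 6.09, 15.8 and 15.2 FPKM to 145, 49.1 and 125 FPKM (3.06 ± 0.55, edgeR adjusted p = 0.012). The summed photosystem level at 1 month was 1728, 460 and 1487 FPKM, against 131 to 304 FPKM at 20 days, so library 3 was far below libraries 2 and 8. Library 3 was the highest at 1 month for the 2 flavonoid enzymes named. Without 20-day library 2, 3 and 8 the photosystem rises were 6, 11 and 6 and the flavonoid rises 7, 10 and 6; without 1-month library 3 the photosystem rises were 30. Whether the harvested roots had been exposed to light was not tested.

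Among the remaining large changes, catalase (g38015), which breaks down hydrogen peroxide, rose from 492, 625 and 588 FPKM to 4262, 1892 and 2584 FPKM (log2 fold change 2.33 ± 0.35, edgeR adjusted p = 0.0073). An ankyrin repeat-containing protein NPR4-like gene (g39556) rose from 1.56, 1.72 and 1.92 FPKM to 53.6, 36.4 and 41.3 FPKM (4.61 ± 0.24, edgeR adjusted p = 0.00081). Fructose-bisphosphate aldolases, glycolytic enzymes, differed among themselves: aldolase 1 (g59775), described as chloroplastic, rose from 7.65, 8.03 and 8.58 FPKM to 64.7, 71.3 and 66.7 FPKM (3.01 ± 0.13, edgeR adjusted p = 0.00081), and a cytosolic aldolase 6 gene (g45357) fell from 174, 153 and 149 FPKM to 3.80, 18.8 and 19.8 FPKM (-3.57 ± 0.56, edgeR adjusted p = 0.0082). The more abundant gene of the same description (g58139) was not called, at 458, 462 and 480 FPKM and 284, 656 and 456 FPKM. Of 80 glycolysis genes 12 rose and 13 fell. Defence genes held 33 rises and 24 falls of 209, and heat shock genes 10 rises and 4 falls of 131. The heat shock rises were 7.63% of that list, near the 7.8% of all genes. Metallothionein type 1 (g48449), a metal-binding protein and the most abundant gene with an informative description at both ages, was not called, at 2925, 3627 and 3068 FPKM and 7224, 4969 and 4575 FPKM, although its groups did not overlap. The defence rises were 7, 15 and 8 and falls 12, 15 and 13 without 20-day library 2, 3 and 8, the heat shock rises 1, 2 and 1 and the glycolysis rises 5, 6 and 6; the heat shock rises were 22 without 1-month library 3.

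**Figure D4:**
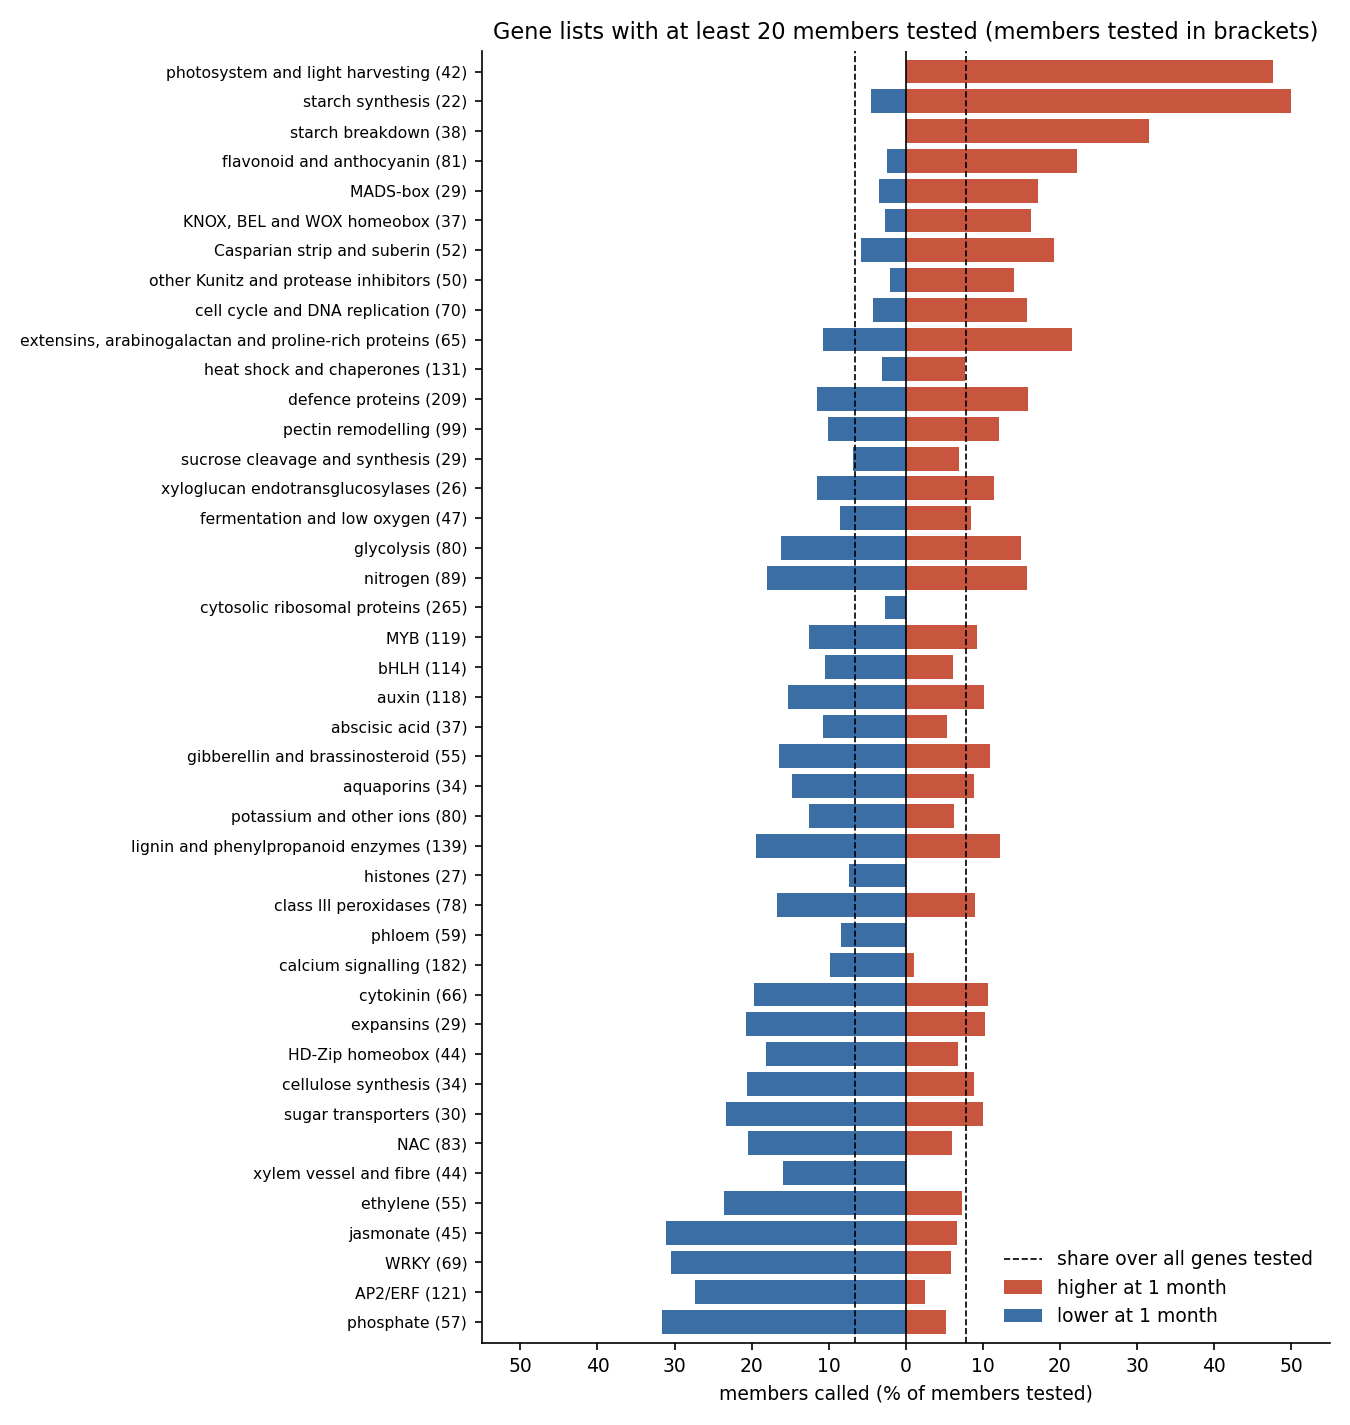
Share of tested members called in each gene list with at least 20 tested members (number in brackets), as a percentage, with genes that rose to the right in red and genes that fell to the left in blue. Dashed lines mark the shares over all 28022 genes, 7.8% and 6.55%; starch, photosystem and flavonoid lists pass the right line, and AP2/ERF, WRKY, jasmonate and phosphate lists pass the left line.

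Most retroelement genes of the Gag-Pol type, a set chosen after their values had been seen, fell in MBP3-OE roots. Of 39 genes described as Gag-Pol, the polyprotein of long-terminal-repeat retroelements, 30 fell (76.9%) and 0 rose, with log2 fold changes from -2.76 to -0.60 and a median of -1.32. Their summed level was 1036, 583 and 783 FPKM at 20 days, 305, 376 and 387 FPKM at 1 month and 16.5, 54.7 and 42.9 FPKM at 4 months. The single WT libraries stood at 1009 FPKM at 20 days and 1030 FPKM at 1 month. The MBP3-OE groups did not overlap, and the WT libraries of both ages lay within or near the 20-day range. Gag-Pol g31302 went from 109, 57.0 and 80.5 FPKM to 30.3, 35.5 and 39.5 FPKM (log2 fold change -1.28 ± 0.23, edgeR adjusted p = 0.012), with 104 and 107 FPKM in WT. The 87 genes of the TNT 1-94 type had 16 falls and 1 rise, and 30 LINE-type genes 2 of each. The difference of the age effect between MBP3-OE and WT was not called in any of the 37 Gag-Pol genes tested for it (edgeR adjusted p 0.88 to 1, 0 genes at an unadjusted p under 0.05, median difference -1.17 on the log2 scale). Copies of such elements share sequence and may share reads, so the genes are not separate measurements. The falls numbered 14, 29 and 11 without 20-day library 2, 3 and 8 and 2 in the fit with all 12 libraries, and the call of g31302 was lost without 20-day library 8 (adjusted p 0.019 to 0.053).

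**Figure D5:**
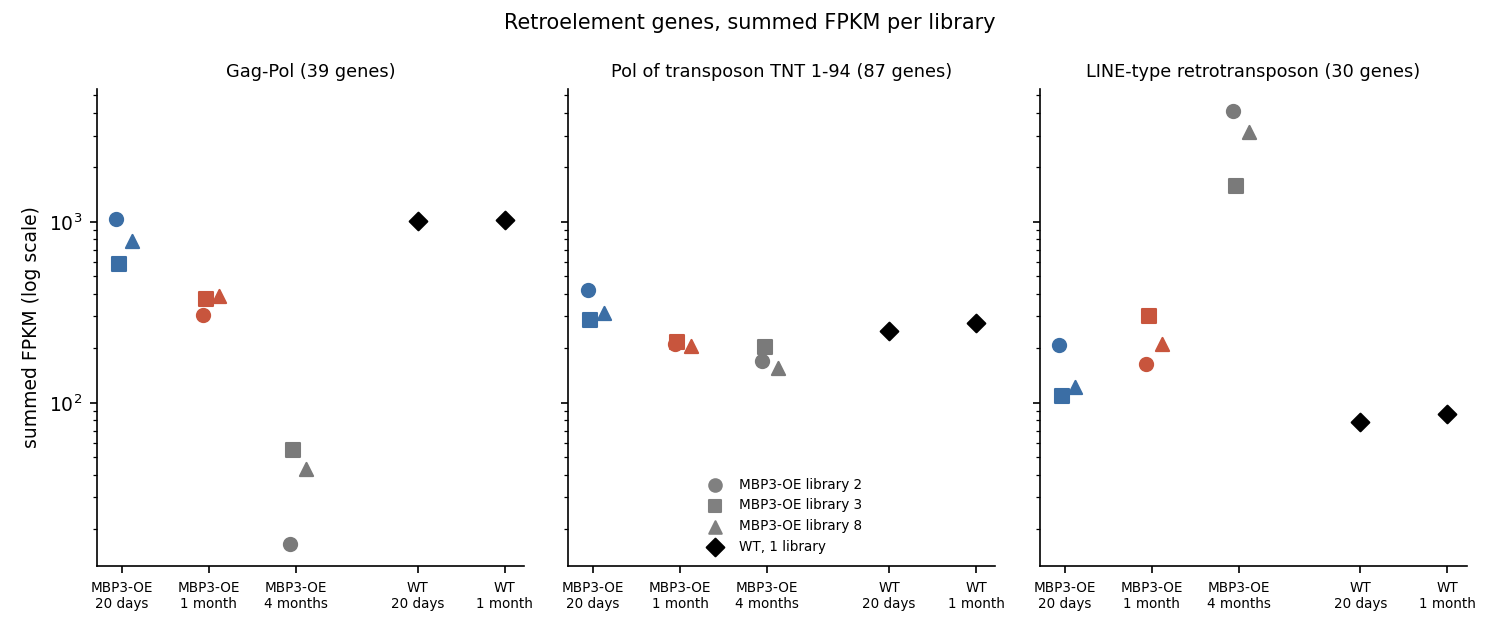
Summed FPKM (y axis, log scale, shared) of the Gag-Pol, TNT 1-94 and LINE-type genes tested, for MBP3-OE at 20 days, 1 month and 4 months (a marker shape for each library number) and for the WT libraries of 20 days and 1 month (black diamonds, 1 library each). The Gag-Pol sum at 1 month, 305 to 387 FPKM, lies below the 20-day libraries and below both WT libraries.

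The same ages of WT can be set beside these values, with 1 library each and no spread of their own. Sporamin g46653 stood at 1.28 and 251 FPKM in WT, and the summed sporamin level at 183 and 2203 FPKM. Phosphate transporter g5297 stood at 54.6 and 0.0478 FPKM, GDPD1 g17637 at 121 and 3.28 FPKM, WUSCHEL-related homeobox 5 g20352 at 13.4 and 3.11 FPKM, and IBKN2 g41979 at 3.54 and 27.6 FPKM. Each of these genes thus differed between the ages in the same direction in WT as in MBP3-OE. The direction was opposite for NAC1 (g61404), at 288 and 400 FPKM in WT, for PIP1-2 (g20353), at 139 and 199 FPKM, and for ribosomal protein L10 (g9879), at 92.1 and 107 FPKM in WT but 109, 96.2 and 121 FPKM and then 18.2, 42.8 and 27.0 FPKM in MBP3-OE. The summed aquaporin level was also higher at 1 month in WT, at 2280 and 5672 FPKM. The summed cytosolic ribosomal protein level was nearly equal in WT, at 34608 and 34589 FPKM. In MBP3-OE it went from 32488 to 34888 FPKM down to 19245 to 25248 FPKM. Neither sum was tested against WT. The difference of the age effects was tested in edgeR over 28065 genes with all 12 libraries, on the assumption that a lone WT library varies as MBP3-OE libraries do. No gene was called, 1730 genes had an unadjusted p under 0.05, and DESeq2 called 183. For NAC1 the difference was -2.31 on the log2 scale (edgeR adjusted p = 0.32), for PIP1-2 -2.68 (edgeR adjusted p = 0.75) and for g46653 -3.60 (edgeR adjusted p = 0.70).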

How the data were processed

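RNA of 12 root libraries was sequenced by the study, and 6 were compared here. Per the labels, RNA was extracted with Trizol and libraries were made with an Illumina TruSeq kit. Per the submitters' processing notes, the authors used cutadapt 1.9, HISAT2 2.0.4 and StringTie 1.3.4d; the genome came from the Ipomoea Genome Hub, and its build is not given in the sources used here. The authors deposited counts per gene as whole numbers, and neither the counting tool nor its handling of multiply aligned reads is given in the sources used here. The authors also deposited FPKM, scaled by transcript length and mapped reads, which is printed as the level of each gene. All per-sample columns were assigned to a library.

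Counts were fitted in edgeR 4.0.16 (R 4.3.3) with TMM scaling and the quasi-likelihood test, 3 libraries against 3, for the genes that averaged 0.5 FPKM or more in those 6, with Benjamini-Hochberg adjustment over all of them. Calls were made at an adjusted p under 0.05 with a log2 fold change of 1 or more in either direction; the SE is the log2 fold change divided by the square root of the F statistic. A log2 fold change printed with an SE is 1 month over 20 days. The p-values measure only the spread between these samples, which may be technical, since no source says that the numbers are separate plants. Alternatives used DESeq2 1.42.0 and limma 3.58.1 on log2(FPKM + 1) and log2(FPKM + 0.1). The interaction with WT was fitted on all 12 libraries.

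Gene lists (50) were built from words in the deposited descriptions, and the expansins from the study's list of IDs; some word patterns were corrected after the matching descriptions, but not the values, had been read. Members and lists were chosen with earlier results of these data known. Summed levels and count shares of these lists take in all their genes in the deposited table, tested or not. Genes were named by rule: the 12 largest rises and 12 largest falls, the 3 most abundant and 3 most changed members of each list, the 10 most abundant genes at each age, the MBP3 genes and the 6 most changed regulators, with at least 5 FPKM in the higher group for a change. The text names a selection of these. The genes g62091, g18083, g34438, g31302, g50254, g46650, g29794, g778 and g786 were added after their values had been seen.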

Additional observations from a re-analysis of the deposited data

How the results depend on the processing

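Of the alternatives tried, none called any gene in the opposite direction to the 4022 calls. The fit with all 9 MBP3-OE libraries called 2646 genes (1637 higher, 1009 lower) and that with all 12 libraries 2592 (1605 higher, 987 lower); these fits pool the spread with that of other ages or genotypes. With no fold minimum, a setting chosen after seeing the data, 6256 genes passed (3335 higher, 2921 lower). With each library left out in turn the count was 1873 to 4356 (927 to 2332 higher, 946 to 2024 lower). DESeq2 called 5155 genes, 3954 of them shared, median-ratio scaling 3987, upper-quartile scaling 4007, no FPKM minimum 4033, a minimum of 1 FPKM 3769, limma on log2(FPKM + 1) 3143 and on log2(FPKM + 0.1) 4136, and an unadjusted p 5426. The share of higher calls was 54.4% in the main setting and 45.9% to 61.9% over these. The difference of the age effects between MBP3-OE and WT, with 0 calls in edgeR at each setting and 1287 to 1928 genes at an unadjusted p under 0.05, had 183 calls in DESeq2, which was also chosen after seeing the data.

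Whether the library numbers pair the samples cannot be settled with 3 libraries per age. Over all genes tested, libraries of the same number deviated from their age means with correlations of -0.046, -0.053 and 0.068. Libraries of different numbers had correlations of -0.069 to 0.108. A pairing that acts on a part of the genes could go unseen in such values. With the number as a block 3033 genes were called (1552 higher, 1481 lower), 2881 of them shared. Apart from g5053 and g47166, 62 of the 73 called genes named in the text kept their call with each library left out. The call of g5053 was kept as well, and that of g47166 was lost without each library but 1-month library 3. Calls of g14427, g17020, g20273, g25102, g26220, g29790, g42323, g45357, g4988, g5053, g61049, g8138, g29794, g31302, g34438, g778 and g786 were lost in the fits with 9 and 12 libraries, that of g3999 with 12, and those of g778 and g47166 under the block. The log2 fold change of g47963, 0.02 and not called, turned to -0.01 with median-ratio scaling, with no FPKM minimum, with DESeq2 or without 1-month library 2, and lay between -0.07 and 0.07 with each library left out, the lowest without 20-day library 2. That of g58139, -0.07 and not called, lay between -0.38 and 0.16 with each library left out and was positive without 1-month library 2 alone, and g1041 was called in DESeq2 (1.52). The cause was not tested. The wider spread at 1 month limits what could be called, and 3 libraries per age from unknown sources limit what the calls stand for.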

Other observations

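Outside the gene lists, several families that share a deposited description changed together in MBP3-OE roots between 20 days and 1 month. These families were singled out after their values had been seen. Of 14 dammarenediol II synthase genes, which cyclize triterpene precursors, 9 rose and of 34 germin genes, coding for small secreted wall proteins, 14 rose and 2 fell, against 7.8% and 6.55% of all genes, whereas of 14 further genes described as putative germin 1 rose. Of 27 trans-resveratrol di-O-methyltransferase genes 12 rose and 1 fell. In the opposite direction, 9 of 19 premnaspirodiene oxygenase genes, which oxidize sesquiterpenes, fell and 1 rose. Of 13 scopoletin glucosyltransferase genes, which attach glucose to a defence coumarin, 6 fell and 0 rose. Of all genes 6.55% fell. Members of such families are often tandem copies and may share reads.

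Some of these genes are neighbours. In the coordinates of the deposited table, 6 germin-like genes from g778 to g786 rose on linkage group 1 between 4590027 and 4625709, and 5 genes described as RNA-dependent RNA polymerase 1, an enzyme of RNA silencing, rose on linkage group 12 between 25328495 and 25372205. The first of the latter, g50254, stood at 6.40, 9.98 and 8.19 FPKM at 20 days and at 49.7, 56.9 and 67.9 FPKM at 1 month (log2 fold change 2.77 ± 0.22, edgeR adjusted p = 0.0018). The calls of the germin-like genes g778 and g786 were lost without 20-day library 2 or 8. Their edgeR adjusted p was 0.019 to 0.074 and 0.0085 to 0.056 with each library left out. There were 30 runs of at least 4 neighbouring tested genes called in the same direction. Over the 15 linkage groups the share of genes that rose was 6.78% to 8.79% and the share that fell 4.29% to 8.12%.

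Among the 104 deposited pathway terms with at least 30 tested genes, the largest shares of rises were in photosynthesis (25 of 58 genes), cutin, suberine and wax synthesis (17 of 47) and porphyrin and chlorophyll metabolism (26 of 80). These terms also held 0, 7 and 3 falls in that order. Of all genes 7.8% rose and 6.55% fell. The largest shares of falls were in sesquiterpenoid and triterpenoid synthesis (15 of 58), RNA polymerase (28 of 121) and zeatin synthesis (10 of 44). These held 10, 1 and 1 rises, so the first of them was mixed. Of the 28 falls under RNA polymerase, 26 are described as retroelement proteins.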
